A study of Mus musculus with 17 samples.

Results

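Myelin is the stacked membrane that oligodendrocytes wrap around axons in the brain, and its proteins hold the layers together, face the axon or coat the outer surface. Myelin membrane is rich in lipid, and its makeup can follow the diet during growth. The hippocampus holds white matter tracts such as the alveus and fimbria beside its neurons, whereas hepatocytes make no myelin. The genes described here are Mbp, Mag, Mog, Mobp and Cnp, taken as every probe set annotated to a single symbol among them. All 5 genes were found, of 6137 genes measured with a probe set of 1 symbol, and they have 7 of the 13069 probe sets on the arrays: 5 on the array type called chip A and 2 on chip B.

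RNA came from hippocampus and liver of male NMRI mice, an outbred stock, that ate purified diets until death on day 57 or 58. The diets added 1.1% of an arachidonate-rich fungal oil, 1.9% of a docosahexaenoate-rich fish oil, or both oils in place of part of the medium-chain triacylglycerol of the control diet, which held neither oil; all diets shared the same sunflower, soybean, palm and milk fats. Per the labels each diet was fed to 10 mice, housed 10 to a cage, of which 5 were chosen at random, and hippocampus and liver came from the same mice. Whether their RNA was pooled is not given in the sources used here, and diet cannot be told apart from cage. The hippocampus gave 1 RNA for each diet and the liver 1 RNA for each oil diet and 2 for control, which made 17 arrays. The hippocampus of mice fed both oils was analysed on chip B alone, so of these genes it has values for Mbp and Cnp only. Nothing in the labels ties the liver controls to separate animals, so a p-value within liver reflects how far these RNAs vary, possibly for technical reasons.

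Intensities are the deposited ones, scaled near a trimmed mean of 150 on every array; a value below the floor of 15 was set to it before log2 was taken. Between 28.3% and 39.8% of probe sets on hippocampus arrays and between 30.7% and 42.5% on liver arrays lay below that floor. The liver controls differed (log2) with an SD of 0.28 for chip A and 0.44 for chip B over probe sets from the 75th percentile of liver brightness upward, and from the median upward the SD was 0.50 for chip A and 0.80 for chip B; this is the sole measure of replicate spread here. The tissues read as labelled: the hepatocyte gene Alb averaged 14 in hippocampus and 12530 in liver, and Thy1, a neuronal surface protein, averaged 4212 in hippocampus and was negative in liver. The Gapdh control probe sets, whose signal ratio between the 3′ and 5′ ends goes up in degraded RNA, gave ratios between 0.840 and 0.947 for hippocampus arrays with control values and between 1.89 and 3.26 for liver arrays. This ratio was higher on every liver array than on any of these hippocampus arrays, so RNA quality cannot be told apart from tissue in the comparisons below. A probe set's brightness depends on its probes, so levels are compared between arrays and never between genes.

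The sequences around the start sites of Mag, Mog and Mobp are shown because these genes were on in hippocampus and below the floor in liver. Cnp, whose probe sets did not read so, is set beside them, and no sequence is shown for Mbp. They run from 250 bases before to 50 bases after a listed transcript start (RefSeq, GRCm38.p6), at chr7:30914873-30915172 on the minus strand for Mag, chr17:37023349-37023648 on the minus strand for Mog, chr9:120149492-120149791 on the plus strand for Mobp and chr11:100574689-100574988 on the plus strand for Cnp. For Mag, with 3 listed starts, the outermost is shown, and for Cnp the 1 listed start lies 30 bases inside the gene's annotated range. Capitals mark ACAAAG or its reverse complement CTTTGT, the core letters bound by SOX and TCF factors, among them SOX10, the transcription factor that drives myelin genes; the motif was picked with the sequences in view.

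Mag: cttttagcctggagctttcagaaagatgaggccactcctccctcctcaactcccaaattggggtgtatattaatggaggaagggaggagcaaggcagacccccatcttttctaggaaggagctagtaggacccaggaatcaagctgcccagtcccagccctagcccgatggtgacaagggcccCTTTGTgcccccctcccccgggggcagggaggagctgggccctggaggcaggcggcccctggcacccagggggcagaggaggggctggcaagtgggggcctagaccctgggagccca
Mog: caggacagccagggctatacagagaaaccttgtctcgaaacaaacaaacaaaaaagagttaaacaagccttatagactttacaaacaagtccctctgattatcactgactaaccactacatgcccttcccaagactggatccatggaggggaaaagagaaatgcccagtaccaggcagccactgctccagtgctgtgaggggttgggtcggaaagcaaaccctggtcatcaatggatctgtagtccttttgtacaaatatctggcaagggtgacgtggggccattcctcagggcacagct
Mobp: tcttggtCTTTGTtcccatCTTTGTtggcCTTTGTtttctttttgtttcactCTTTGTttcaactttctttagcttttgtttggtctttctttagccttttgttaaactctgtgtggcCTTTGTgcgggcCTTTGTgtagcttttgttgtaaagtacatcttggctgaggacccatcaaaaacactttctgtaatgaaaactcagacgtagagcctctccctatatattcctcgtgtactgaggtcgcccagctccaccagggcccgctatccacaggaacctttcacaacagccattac
Cnp: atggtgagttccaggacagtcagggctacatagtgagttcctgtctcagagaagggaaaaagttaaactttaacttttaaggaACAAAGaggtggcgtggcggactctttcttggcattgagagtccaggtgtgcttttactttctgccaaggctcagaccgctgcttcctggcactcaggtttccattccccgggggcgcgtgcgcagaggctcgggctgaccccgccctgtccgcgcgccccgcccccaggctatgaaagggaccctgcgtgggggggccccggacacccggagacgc

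Mobp held these letters at 6 places, Mag and Cnp at 1 each and Mog at 0. Of 32851 promoter windows of 300 bases, 18.7% held the motif on either strand and 2.37% held it at 2 or more places. CAGCTG, an E-box that reads the same on both strands and shares no whole match with the first motif, was in none of the 4 windows and in 16.3% of all. A match of letters is a description of the sequence and not a binding site.

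Myelin transcripts were on in hippocampus, and 4 of the 5 genes read higher there than in liver. Mobp, a small basic protein of the cytoplasmic face of central myelin, read on its probe set R75491_rc_at 937 with fungal oil, 1088 with fish oil and 1005 with control diet in hippocampus. On the liver arrays the same probe set lay between -43 and -24. Its other probe set, U81317_at, read 417 with fungal oil, 349 with fish oil and 237 with control diet in hippocampus, and between -216 and -89 in liver. No hippocampus value of either came near a liver value, and all liver values were below the floor.

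Mag, the adhesion protein of the innermost myelin layer that contacts the axon, read 312 with fungal oil, 328 with fish oil and 223 with control diet in hippocampus, against -12 to 12 in liver. Mog, an immunoglobulin-like protein on the outermost layer and a known target of autoantibodies, read 148 with fungal oil, 148 with fish oil and 172 with control diet in hippocampus, against -44 to -15 in liver. Mag and Mog were thus above the floor on every hippocampus array and below it on every liver array.

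Mbp encodes myelin basic protein, which compacts the cytoplasmic faces of the membrane. Its probe set on chip B read 268 with fungal oil, 281 with fish oil, 294 with both oils and 261 with control diet in hippocampus. In liver it read 21 with fungal oil, 43 with fish oil, 99 with both oils, and 72 and 74 in the controls. The tissues did not overlap, but Mbp was the 1 gene of these whose liver values were all above the floor while its hippocampus values were higher.

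Cnp, a cyclic nucleotide phosphodiesterase of non-compact myelin that is widely used as an oligodendrocyte marker, did not read as a hippocampal gene on either probe set. On chip A (m31810_rc_at) it read 27 with fungal oil, -20 with fish oil and -16 with control diet in hippocampus. The liver read higher there, at 59 with fungal oil, -5 with fish oil, 149 with both oils, and 100 and 112 in the controls. On chip B the hippocampus read 58 with fungal oil, -197 with fish oil, -9 with both oils and -64 with control diet, and every liver value was between -169 and -105. The annotation gives both probe sets the same source accession, and the fungal-oil array was the sole hippocampus array above the floor on each. Probe sequences were not at hand, so whether these probe sets report the Cnp transcript was not tested, and low readings need not mean that it was absent.

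**Figure D1:**
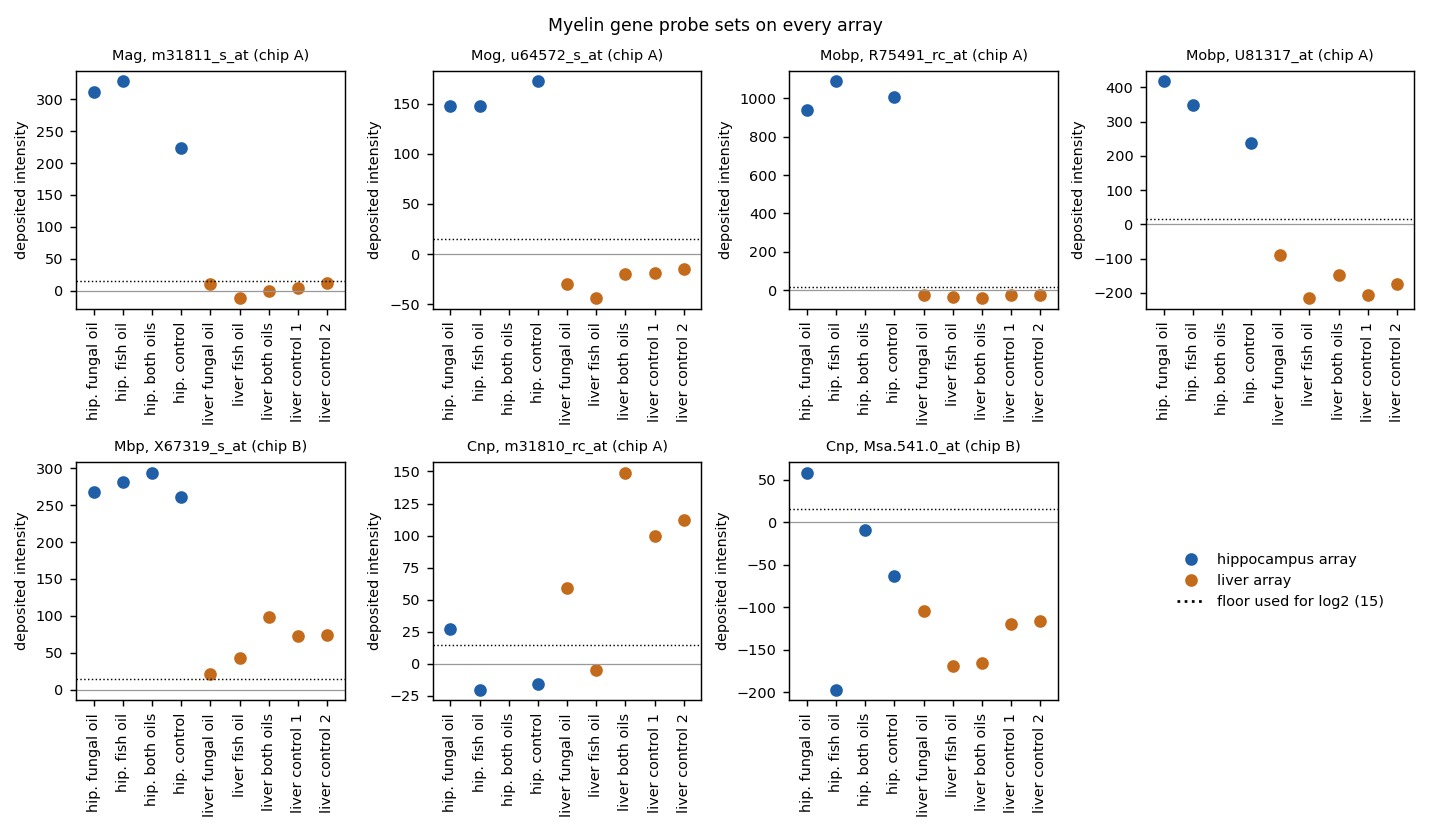
Each panel plots the deposited intensity (y axis, linear, its own scale) of 1 myelin gene probe set on every array, with blue points for hippocampus and orange points for liver; the dotted line is the floor of 15. Mag, Mog, Mobp and Mbp have every hippocampus point above every liver point, whereas Cnp on chip A has liver values up to 149 and hippocampus values of 27 and below.

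The tissues were compared by limma over 3 hippocampus and 5 liver arrays on chip A and 4 and 5 on chip B, with diet as a covariate. The both-oils liver array of chip A, which has no hippocampus partner, then adds nothing to the tissue difference. Every probe set above the floor on at least 1 array was tested. All 7 myelin probe sets passed that filter, but Mag, Mog, both Mobp probe sets and the chip B probe set of Cnp passed through hippocampus arrays alone, the last through the fungal-oil array alone, so the count of calls is a description. Of the 7 probe sets 5 were called higher in hippocampus (adjusted p under 0.05 and at least 2-fold), where 23.8% of 11013 probe sets were, and 0 were called lower, where 14.4% were. Mobp was at least 67.5-fold higher (R75491_rc_at, adjusted p = 9.56e-06) and at least 21.8-fold higher (U81317_at, adjusted p = 0.000118) in hippocampus. Mag was at least 19.0-fold higher (adjusted p = 9.23e-05) and Mog at least 10.4-fold higher (adjusted p = 9.94e-05). These bounds set the plain hippocampus mean of log2 values against the floor, without the diet covariate. The adjusted p-values belong to the log2 differences of the limma fit with diet, which differ slightly from the bounds. Bounds and differences move with the floor. With 2.5 times the floor the log2 differences of the fit were 4.76 and 3.08 for Mobp, 2.89 for Mag and 2.07 for Mog. With the floor of 15 they were 6.08, 4.40, 4.21 and 3.40, and all were called with either floor. Because the floor gives all liver values of a probe set 1 number, these p-values rest on the hippocampus spread and the spread shared across probe sets.

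For Mbp, measured in both tissues, hippocampus minus liver was 2.38 on the log2 scale (SE 0.35, limma adjusted p = 0.00156). Cnp did not pass in either direction: the chip A difference was -1.48 (SE 0.57, adjusted p = 0.0907, 95% interval -2.97 to 0.02), and the chip B difference was 0.45 (SE 0.34, adjusted p = 0.312). That chip A difference leaves out the both-oils liver reading of 149, and without diet as a covariate it was -1.915 (limma adjusted p = 0.0513). The chip A value of Cnp rested on single RNAs: it was -0.57 without the control hippocampus (adjusted p = 0.301) and -2.11 without the fish-oil hippocampus (adjusted p = 0.0517). Leaving out any hippocampus RNA or either liver control kept the count at 5 higher and 0 lower.

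**Figure D2:**
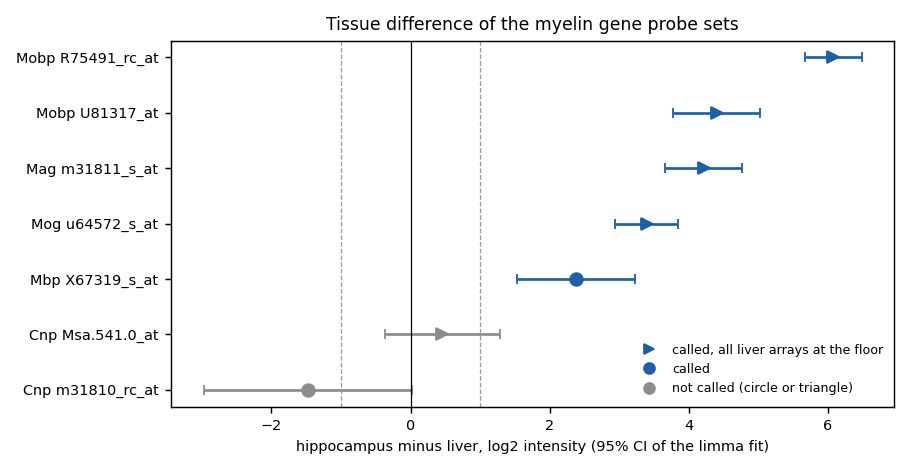
Hippocampus minus liver difference in log2 intensity (x axis) for each myelin gene probe set (rows), with 95% intervals of the limma fit; blue marks the 5 called probe sets, grey the Cnp probe sets, triangles those with all liver arrays at the floor, and dashed lines 2-fold. The Mobp, Mag, Mog and Mbp probe sets lie to the right of 2-fold, and both Cnp intervals include 0.

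Within the hippocampus the oil diets were set beside control diet to ask whether dietary arachidonate or docosahexaenoate went with other myelin transcript levels. With 1 RNA per diet there is no test, and in tissue RNA fewer cells of a type and less RNA per cell cannot be told apart. The probe sets at or above the median brightness of their chip in hippocampus were 5 of the 7, all but Cnp, and only those are read as levels here.

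With fungal oil, Mag read 312 against 223 in control hippocampus, a log2 ratio of 0.48. Mobp had a log2 ratio of 0.82 on U81317_at and of -0.10 on R75491_rc_at, so its probe sets disagreed in sign. Mog had a log2 ratio of -0.22 and Mbp of 0.04. The log2 ratio of U81317_at exceeded the chip A control SD by either measure (0.28 and 0.50), that of Mag exceeded 0.28 but not 0.50, and those of Mog, Mbp and R75491_rc_at exceeded neither SD of their chip.

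Past 1.5-fold higher with fungal oil was 1 of these 5 probe sets, Mobp U81317_at (1.76-fold), where 7.86% of 6538 probe sets of that brightness were, and past 1.5-fold lower were 0, where 6.36% were. Their median log2 ratio was 0.04, with 3 above and 2 below control, beside -0.00 over all probe sets of that brightness (SD 0.51). Over all 7 the median was 0.48, since both Cnp probe sets were above the floor with fungal oil alone, at least 1.80-fold and at least 3.87-fold higher than control. These Cnp bounds depend on the floor: the log2 ratios became 1.85 and 2.95 with 0.5 times the floor, and 0 and 0.63 with 2.5 times it.

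With fish oil, Mag (328) had a log2 ratio to control of 0.56, Mobp of 0.56 (U81317_at) and 0.11 (R75491_rc_at), Mbp of 0.11 and Mog of -0.22. Of the 5 probe sets 4 were above control, the median was 0.11, and 0 were past 1.5-fold in either direction, where 7.97% of probe sets of that brightness were higher and 7.05% lower and the median was 0.02 (SD 0.56). Mag and U81317_at, each 1.47-fold higher, lay just under that limit, which was chosen after seeing the data. With fish oil Mag and U81317_at exceeded both chip A control SDs, but each lay at about 1 SD (0.56) of the ratios over all probe sets of that brightness. Both oil arrays are set against the same control array, so a low control reading of a probe set raises both ratios.

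With both oils, Mbp read 294 against 261 in control hippocampus, a log2 ratio of 0.17, while Cnp was below the floor on both arrays. Mbp was not past 1.5-fold, where 8.83% of 3273 chip B probe sets were higher and 7.06% lower. The diets ordered Mbp as control (261), fungal oil (268), fish oil (281) and both oils (294), and no neighbours in that order differed beyond the chip B control SD of 0.44. A limma fit of the 4 chip B arrays with additive oils gave Mbp 0.05 (SE 0.17, adjusted p = 0.999) for fungal oil and 0.12 (SE 0.17, adjusted p = 0.998) for fish oil. It called 0 of 3273 probe sets (0%) for either oil, with 115 and 91 at an unadjusted p under 0.05; its error is the interaction of the oils on 1 residual degree of freedom.

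**Figure D3:**
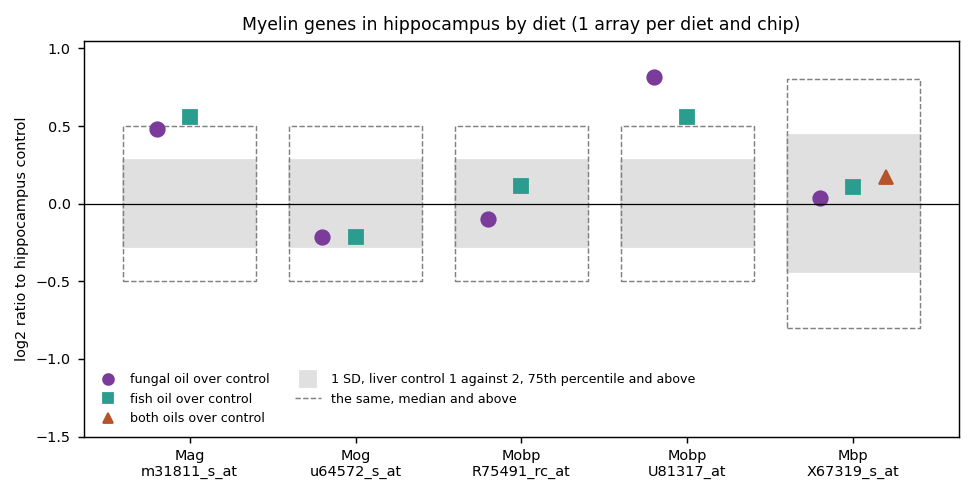
Log2 ratio of each oil diet to control diet in hippocampus (y axis) for the 5 probe sets above the chip median (x axis), 1 point per diet; grey boxes span 1 SD of the difference between the liver controls on that chip over probe sets from the 75th percentile upward, and dashed boxes the same from the median upward. Mobp U81317_at lies above both boxes with fungal oil and fish oil, Mag lies above both with fish oil and above the grey one alone with fungal oil (0.48), and Mog, Mobp R75491_rc_at and Mbp lie inside.

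Other genes of the oligodendrocyte lineage were counted from a list of 41, of which 18 had a probe set with 1 symbol and 11 reached the chip median in hippocampus. Between tissues 7 of the 18 were called higher in hippocampus (38.9%, beside 23.8% of all probe sets) and 4 lower (22.2%, beside 14.4%); each gene stands for its brightest probe set in hippocampus, a choice that favours higher calls there. Higher were the carbonic anhydrase Car2 (log2 difference 5.00), the lipocalin Apod (5.35), the tight junction protein of myelin Cldn11 (4.97), the actin-severing Gsn (3.62), the growth factor receptor of oligodendrocyte precursors Pdgfra (2.35), the small heat shock protein Cryab (1.93) and the kinase Sgk1 (1.81). Lower were the gap junction protein Gjb1 (-2.54), which hepatocytes also make, the pterin reductase Qdpr (-1.32), Erbb3 (-3.97) and Klk6 (-1.21). Sox10 (0.09, adjusted p = 0.724), Nkx2-2 (1.10, adjusted p = 0.0679) and the tetraspanin Cd9 (0.36, adjusted p = 0.304) did not pass.

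In hippocampus Apod read 730 with fungal oil, 772 with fish oil, 732 with both oils and 550 with control diet, so all oil arrays were above control. Cldn11 read 509 with fungal oil and 576 with fish oil, against 469 with control diet. Sox10, whose probe set averaged 119.8 in liver, read 163 with fungal oil and 127 with fish oil, against 102 with control diet. Cryab went both ways, at 404 with fungal oil, 693 with fish oil and 661 with both oils, against 507 with control diet. Car2 read 1007 with fungal oil and 1104 with fish oil, against 1077 with control diet.

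Over the 11 genes at or above the chip median, 7 were above control with fungal oil (median log2 ratio 0.12) and 8 with fish oil (0.04). Of the 4 on chip B, 3 were above control with both oils (0.19). These medians stand beside -0.00, 0.02 and 0 over all probe sets of that brightness. The 11 lineage genes summed to 4258 with fungal oil and 4707 with fish oil, against 4105 with control diet. The 4 on chip B summed to 1914 with both oils, against 1587 with control diet, and each sum is led by its brightest probe sets. The galactolipid synthase Ugt8a stayed near the floor on all hippocampus arrays (15 with fungal oil, -6 with fish oil, -2 with both oils and 21 with control diet), and the myelin transcription factor Myrf read 38 with fungal oil, 22 with fish oil and -1 with control diet.

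Markers of the choroid plexus and meninges, tissues that border the hippocampus, also differed between these arrays. Ptgds, a prostaglandin synthase of meninges that oligodendrocytes also make, read 3118 with fungal oil and 1843 with fish oil, against 624 with control diet. The growth factor Igf2 read 805 with fungal oil and 415 with fish oil, against 353 with control diet. Ttr, the thyroxine carrier made by choroid plexus, read 490 with fungal oil and 157 with fish oil, against 304 with control diet, and Kl read 221 with fungal oil and 119 with fish oil, against 145 with control diet. All 4 were thus above control with fungal oil (median log2 ratio 0.94), whereas 2 were above and 2 below with fish oil (-0.03). Over the 4 of 5 measured markers at or above the chip median the summed intensity was 4634 with fungal oil and 2534 with fish oil, against 1426 with control diet; without Ptgds it was 1516 with fungal oil and 691 with fish oil, against 802 with control diet. Folr1 was below the floor except for 39 with fungal oil. Endothelial markers summed to 852 with fungal oil and 743 with fish oil, against 571 with control diet, over 4 of 7 measured genes, with 3 above control for fungal oil and 2 for fish oil. Their part in the Mag and Mobp ratios was not tested.

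Summed markers of neurons, astrocytes, and microglia and macrophages lay closer together with either oil alone, though each sum is led by its brightest probe sets. Neuronal markers summed to 13346 with fungal oil and 13197 with fish oil, against 13413 with control diet, over 11 of 13 measured genes, Thy1 and Gad1 among them, with medians of -0.02 for each oil. Gad2 and Camk2a were left out as below the chip median. Gad2 read 56 with fungal oil and 54 with fish oil, against 48 with control diet. Camk2a read 41 with fungal oil, 6 with fish oil and 19 with both oils, against 100 with control diet. Astrocyte markers, among them Sparcl1 and Gja1, summed to 5121 with fungal oil and 4407 with fish oil, against 4970 with control diet. Of these 8 markers 4 were above control and 4 below with fungal oil, and 3 above and 5 below with fish oil. Aqp4 among them read 312 with fungal oil and 263 with fish oil, against 484 with control diet. Markers of microglia and macrophages, among them Lyz2 and Ctss, summed to 2194 with fungal oil and 2166 with fish oil, against 2177 with control diet. With both oils, on chip B, astrocyte markers summed to 1461 against 1739 with control diet, with 0 above control and 4 below (median log2 ratio -0.28). Neuronal markers there summed to 8130 against 8875, with 3 above and 2 below. Those of microglia and macrophages summed to 933 against 923, with 2 above and 2 below. Of the Schwann cell myelin list only Pmp22 reached the chip median, at 157 with fungal oil and 113 with fish oil, against 103 with control diet; Egr2, which drives peripheral myelination, was below the floor on all hippocampus arrays. The hepatocyte genes Hpd and Cyp2e1 were below the floor on all 3 hippocampus arrays of chip A. Of 9 measured hepatocyte genes, however, 3 reached the chip median in hippocampus, namely Ttr, Serpina1a and Apoa2. Serpina1a read 199 with fungal oil, 238 with fish oil and 220 with both oils, against 153 with control diet. Apoa2 read 146, 105 and 151 in that order, against 138. With fungal oil 3 of these were above control, and with fish oil 1 was above and 2 below.

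**Figure D4:**
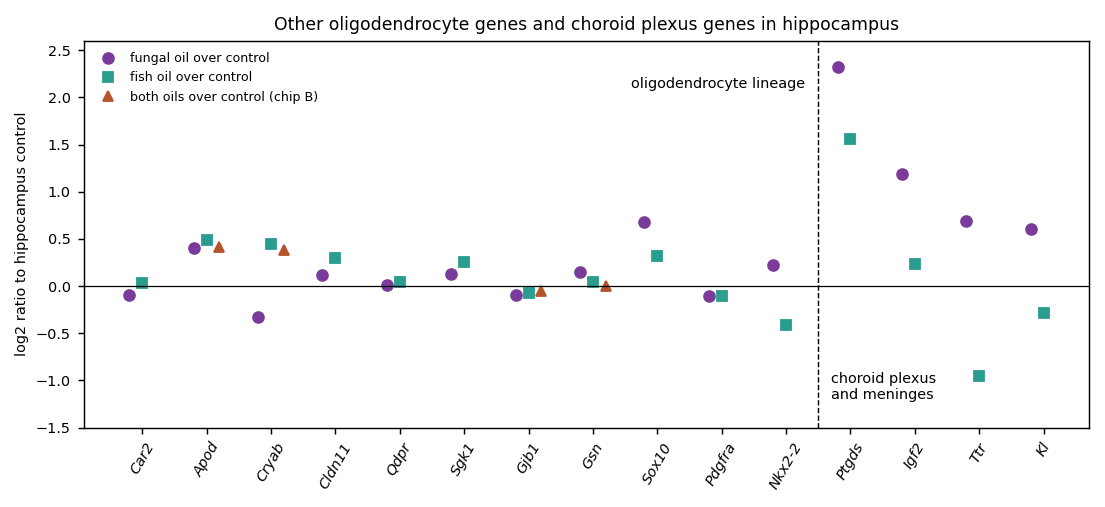
Log2 ratio of each oil diet to control diet in hippocampus (y axis) for the oligodendrocyte lineage genes (left of the dashed line) and the choroid plexus and meningeal genes (right) at or above the chip median; both-oils points exist for chip B genes. Lineage genes lie between -0.42 and 0.68, whereas Ptgds reaches 2.32 with fungal oil and 1.56 with fish oil, and with fish oil Ttr (-0.95) and Kl (-0.29) lie below control.

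In liver, Mbp on chip B and Cnp on chip A were the probe sets bright enough to be tested between diets, and neither passed the test. Mbp read 21 with fungal oil, against 72 and 74 in the controls, a log2 fold change of -1.80 (SE 0.47, limma adjusted p = 0.530), with -0.76 for fish oil (adjusted p = 0.615) and 0.44 for both oils (adjusted p = 0.758). Cnp at 59 with fungal oil had -0.84 (SE 0.28, adjusted p = 0.555), and at -5 with fish oil, below the floor, -2.82 (SE 0.28, unadjusted p = 0.00165, adjusted p = 0.375). With both oils Cnp was 0.49 above the control mean (adjusted p = 0.627). The fit called 0 of 6537 probe sets (0%) for each diet, with 599, 724 and 647 at an unadjusted p under 0.05 for fungal oil, fish oil and both oils, and it takes the control spread for the oil RNAs, which have 1 each.

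Whether an oil moved Mbp differently in hippocampus and liver was tested by an interaction of tissue and oil, added after seeing the data. Hippocampus effect minus liver effect was 0.56 (SE 1.02, limma adjusted p = 0.963) for fungal oil and -0.40 (SE 1.02, adjusted p = 0.961) for fish oil. None of the 7 myelin probe sets was called for either oil, where 1.79% of 11013 probe sets were for fungal oil and 1.49% for fish oil. For Mag, Mog and both Mobp probe sets this was no test of the oils. The fit passes exactly through the 3 hippocampus arrays of chip A, and their liver values are all at the floor. Their error thus comes only from the spread shared across probe sets. For Mobp U81317_at and fungal oil the difference was 0.81, in effect its hippocampus log2 ratio to control. For the 5 probe sets with all liver values at the floor the interaction compares the hippocampus alone with a fixed number.

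Among bright genes with 1 symbol, those whose log2 values across all arrays of a chip were most like each myelin gene are given by Pearson's r, as a description. The nearest to Mbp over 9 arrays were Bcat1, a branched-chain amino acid transaminase (0.987), the calcium-binding S100a8 (0.984), the glutamate transporter Slc1a1 (0.981), the growth factor homologue Fgf13 (0.975) and the mitochondrial creatine kinase Ckmt1 (0.967). The nearest to Mobp (R75491_rc_at) over 8 arrays were Sh3gl3, Mapk8ip3, the neuronal exchange factor Kalrn, the neurofilament gene Nefl and the desaturase Scd2. Those nearest to Mag were Tmem50b, Mast3, Ralgds, the fatty acid carrier Fabp3 and Cdc42se2, and those nearest to Mog were Cnih2, Prkar1b, the neural stem cell factor Sox2, Asns and the neuronal factor Neurod6. All of these partners of Mobp, Mag and Mog were on in hippocampus and below the floor in liver, as the myelin genes are, and the difference between tissues alone sets r near 1. The partners of Mbp also read higher on every hippocampus array than on any liver array, as Bcat1 did (377 to 483 against 23 to 116). Their r thus holds the difference between tissues too, and likeness beyond it was not tested. Cnp stood apart: its nearest were Lrrc57, Psma4, Tgoln1, Myh9 and Aup1, with r between 0.871 and 0.916, and all 5 read at least 193 in hippocampus, where Cnp lay at or near the floor.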

How the data were processed

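Each probe set has 1 intensity on an array in the deposited tables, a whole number that can be negative; which software, background method and scaling the authors used is not given in the sources used here. Array trimmed means (lowest and highest 2% left out) were 146.1 to 149.4. Diet ratios used the intensities as deposited; fits across tissues and the likeness measure scaled every array to 150. The 55 control probe sets of each chip were left out. Gene symbols came from the platform's annotation (5541 of 6529 on chip A and 2001 of 6540 on chip B have 1 symbol), and updating symbols by gene identifier changed 0. Fits used limma 3.58.1 in R 4.3.3 (lmFit, eBayes with intensity trend) and were tested on simulated data. Tissue and interaction fits used every probe set at or above the floor on at least 1 array. Benjamini-Hochberg adjustment ran over both chips, and over chip B alone for the additive fit of hippocampus. Liver and additive fits tested probe sets whose mean reached the chip median. A gene of a marker list is represented by its brightest probe set in hippocampus; the 12 brightest lineage genes and the 2 brightest of other lists are named, beside genes outside that rule chosen after their values were seen. Alternatives were quantile normalization, other floors, other filters, no trend, tissue without diet, additive oils and leaving out single RNAs. Members and lists were chosen with earlier results of these data known; the 1.5-fold limit and the interaction fit were chosen after seeing the data. Signal over background and the number of arrays limit the precision.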

Additional observations from a re-analysis of the deposited data

How the results depend on the processing

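The count of 5 myelin probe sets called higher in hippocampus and 0 lower was the same under quantile normalization, 0.5 and 2.5 times the floor, a brightness filter, no intensity trend, tissue without diet, and without each liver control or hippocampus RNA. These alternatives could hardly change it, since Mag, Mog and both Mobp probe sets were at the floor on all liver arrays. The brightness filter left 5 myelin probe sets to test, without those of Cnp, and leaving out the fungal-oil hippocampus left 6. The median log2 ratio of the 7 probe sets with fungal oil against control in hippocampus was 0.48, but 0.038 with 2.5 times the floor, with the brightest probe set of each gene and with probe sets at or above the chip median. The first shrinks the Cnp ratios, the second leaves out Mobp U81317_at and 1 Cnp probe set, and the third leaves out both Cnp probe sets. The fish oil and both oils medians moved by less than the spread between the liver controls. Liver and additive hippocampus fits called 0 myelin probe sets under every alternative run; in liver the lowest adjusted p among them was 0.170, with no filter on dim probe sets. In liver no myelin probe set passed the 75th percentile filter, so that alternative gave no value, and the fits without 1 liver control used additive oils. With 1 RNA per diet, no diet difference in hippocampus can be tested beyond the additive fit of chip B, and values near the floor, as for Cnp, are bounds.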
